A study of Mus musculus with 8 samples.

Results

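The genes described here encode 3 of the kinases that phosphorylate translation initiation factor eIF2 on its alpha subunit (Eif2ak3, Eif2ak2 and Eif2ak4), the regulatory subunit of the phosphatase that removes that phosphate (Ppp1r15a), and a repressor of cap-dependent translation (Eif4ebp1). They were measured in mouse liver on 8 Affymetrix MG-U74Av2 arrays. The genes were chosen by name, and each was named alone by 1 probe set of the array annotation. The 5 genes stand among 8251 genes of the array, and their 5 probe sets among 10833 that name a single gene and 12422 that were tested. No probe set named one of these genes together with another gene.

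All mice carried the Ttr::Fv2E-Perk transgene, in which the drug AP20187 joins and thereby activates a chimera of PERK that is made under the transthyretin (Ttr) promoter. The line was described as low expressing, the background was a mix of FvB/n and Swiss Webster, and the mice compared were transgene-positive siblings. There were 2 arrays in each of 4 groups: AP20187-treated ATF4-/-, AP20187-treated ATF4+/+, untreated ATF4-/- and untreated ATF4+/+ liver, written Atf4-/- and Atf4+/+ below after the mouse gene. The series title calls the control mice mock-injected and the sample labels call them untreated. Dose, time after AP20187, age and sex are not given in the sources used here. Nothing in the labels tells whether 2 arrays of a group are 2 mice, so each p-value reflects the spread among arrays, which may be technical, and precision is limited by how few there are.

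Phosphorylated eIF2 slows the start of translation in general while the mRNA of the transcription factor ATF4 is translated more, a sequence known as the integrated stress response. PERK (Eif2ak3) responds to unfolded protein in the endoplasmic reticulum, PKR (Eif2ak2) to double-stranded RNA, and GCN2 (Eif2ak4) to shortage of amino acids. GADD34 (Ppp1r15a) brings protein phosphatase 1 to eIF2 and so closes a negative feedback loop, and 4E-BP1 (Eif4ebp1) binds the cap-binding protein eIF4E until the kinase mTORC1 phosphorylates it. In these mice AP20187 is meant to switch on PERK signalling in liver without stress in the endoplasmic reticulum, and the comparison of genotypes asks which responses need ATF4.

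Every value is a linear ratio, and in each of these 5 probe sets the 8 values are relative to their median. The values therefore rank arrays within a gene and give no level of one gene against another. Ratios also carry no absolute signal, so the liver identity of the samples could not be checked by level. The 9 measured of 10 hepatocyte markers had a mean log2(ratio + 0.1) between -0.26 and 0.32 in every array. On that scale an unchanged ratio has a positive value. The mean was lowest in treated Atf4+/+ replicate 2. That array also had the lowest 5′ over 3′ log2 ratio of the Actb control probe sets, -0.64, against -0.19 to 0.14 in the other 7. For the Gapdh control probe sets it was -0.06 in that array, against -0.05 to 0.13 in the other 7. The ratio of Atf4 itself was 0.25 and 0.33 in treated Atf4-/- arrays, 4.17 and 5.75 in treated Atf4+/+ arrays, 0.29 and 1.67 in untreated Atf4-/- arrays, and 2.36 and 0.30 in untreated Atf4+/+ arrays. The treated arrays thus matched their genotype labels, while replicate 2 of each untreated group stood on the other genotype's side, and these are the doubted untreated arrays below. For untreated Atf4-/- replicate 1 the source name says ATF4-/- and the description ATF4+/+, and the source name was used. The AP20187 effect over both genotypes (4 treated against 4 untreated arrays) is the mean of the effects in each genotype. It stays the same if the doubted arrays trade places, since each group keeps 2 arrays, but it moves if the description of untreated Atf4-/- replicate 1 is followed, to 0.35 for Eif2ak3 and -0.28 for Eif2ak4, against 0.16 and -0.46 as used. The untreated groups are named below as labelled. Ddit3, the gene of the transcription factor CHOP and a known target of the pathway, had ratios of 1.70 and 2.52 in treated Atf4-/- arrays, 3.12 and 5.95 in treated Atf4+/+ arrays, 0.30 and 0.11 in untreated Atf4-/- arrays, and 0.09 and 0.21 in untreated Atf4+/+ arrays.

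RefSeq promoter sequences (build GRCm38.p6, 250 bases before to 50 after each listed start) were found for 4 of the 5 genes. The missing gene was Eif4ebp1, whose promoter was therefore not searched. Parts of the sequences are shown for Ppp1r15a and Eif2ak2, with the searched letters in capitals. The Ppp1r15a sequence is chr7:45526269-45526388 on the minus strand, the 120 bases before the listed start. The Eif2ak2 sequence is chr17:78882536-78882565 on the minus strand, 30 bases that begin shortly after the listed start.

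Ppp1r15a: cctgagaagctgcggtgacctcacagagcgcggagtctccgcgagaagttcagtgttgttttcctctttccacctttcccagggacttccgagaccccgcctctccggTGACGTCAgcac

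Eif2ak2: gagtccgccggGAAAACGAAACAGAAgaga

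The capitals in Ppp1r15a mark TGACGTCA, the palindrome known as the cyclic AMP response element, at position -12 from the start. It is the overlap of TGACG on both strands, and the 8-letter form was searched for only after TGACG had been found there. Ppp1r15a held a further TGACG on the minus strand at position 8 after the start, outside the bases shown. TGACGTCA stood in 1.79% of the 32851 promoters of the table, and TGACG on either strand in 20.81%. The capitals in Eif2ak2 mark 2 overlapping copies of GAAANNGAA, a spelling of the interferon-stimulated response element, at positions 19 and 25 after the start. GAAANNGAA stood in 8.56% of promoters, and Ppp1r15a held 1 copy too, at position -220 from its start. Eif2ak4 has 2 listed starts, and TGACG stood at position -34 from one of them. TGATGNAA, the core of the composite site of C/EBP and ATF factors, was looked for on both strands in the promoters of these 4 genes, and its letters were in none of them, as against 3.97% of all promoters. CCACG, the second part of the endoplasmic reticulum stress element, stood in 32.77% of all promoters and among these genes in Ppp1r15a, on the minus strand at position 27 after the start. A match of letters is a description and does not show that a factor binds.

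None of the 5 genes passed limma's test at an adjusted p of 0.05 (Benjamini-Hochberg over all 12422 probe sets) in any of the 6 comparisons made. Few probe sets did. Over both genotypes 0.0403% passed, which were 5 probe sets: B3galt1, Igfbp1, Atf3, Ifrd1 and one that names no single gene. In Atf4+/+ liver 0.00805% passed, which was 1, B3galt1. The share was 0.0% for AP20187 in Atf4-/- liver, for the difference of the AP20187 effects between genotypes, and for Atf4-/- against Atf4+/+ with AP20187 and without it. Over both genotypes, leaving out 1 array at a time left 0 to 2 probe sets past the test. In the 4 comparisons with none, limma gave 922, 678, 659 and 661 probe sets an unadjusted p under 0.05. The results below are therefore levels in each array with fitted differences and their errors. All differences are on the scale of log2(ratio + 0.1), with standard errors (SE) from the fit of all 8 arrays.

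**Figure D1:**
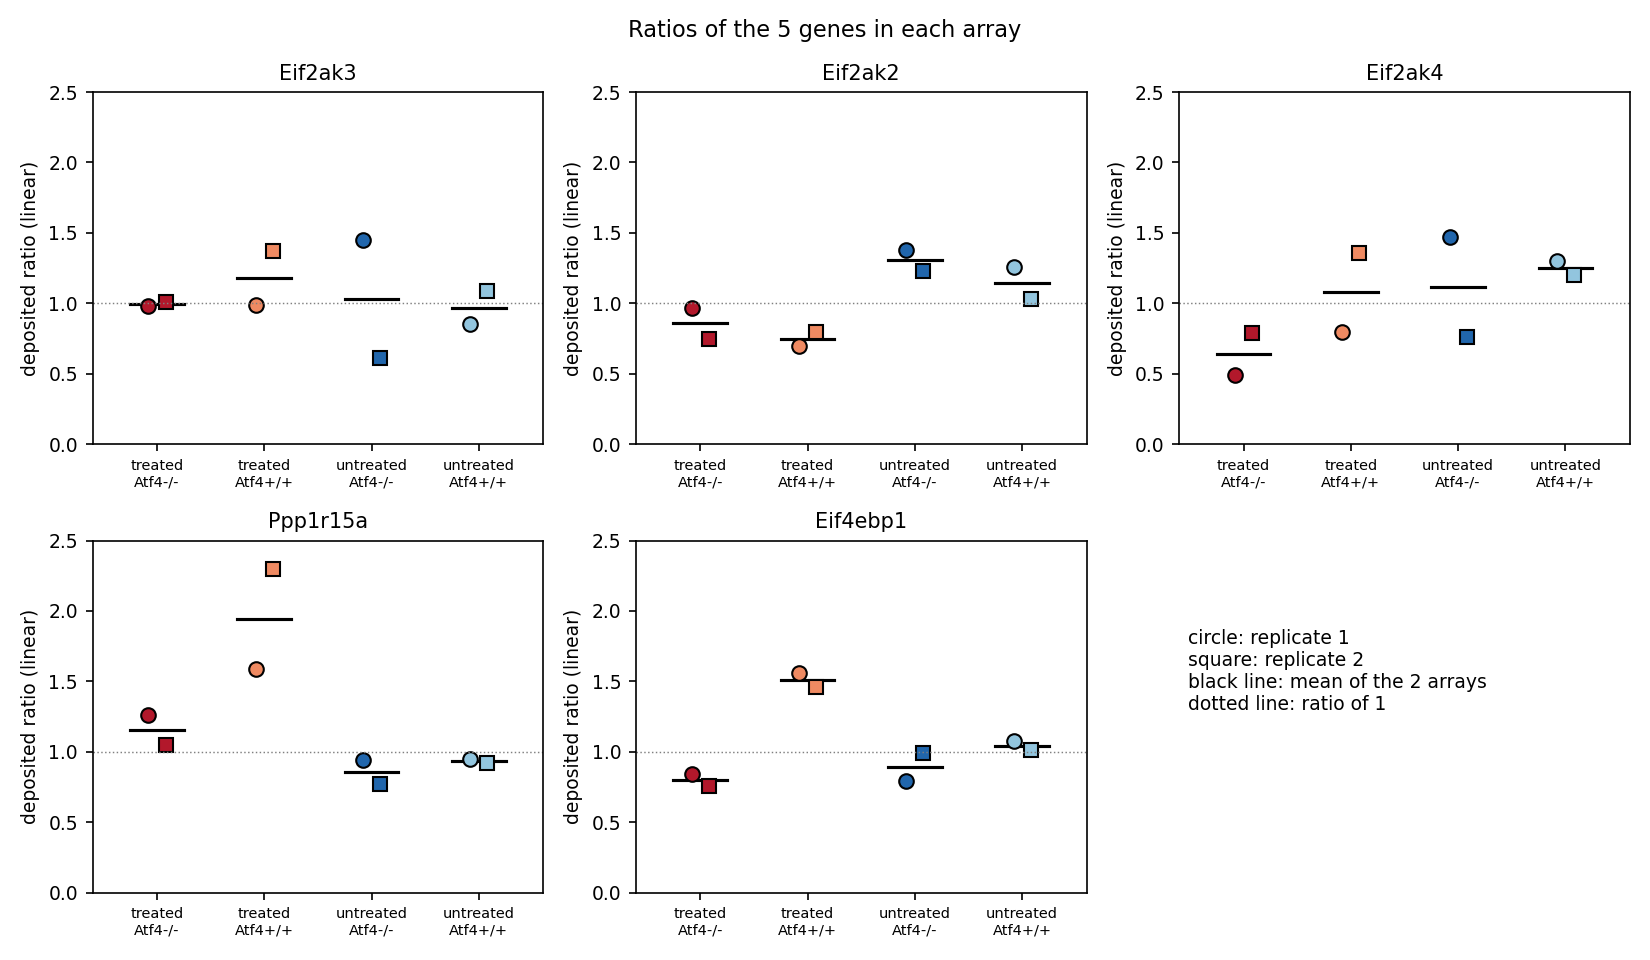
Linear ratio of each of the 5 genes in the 8 arrays, by group, with replicate 1 as a circle, replicate 2 as a square and the mean of the 2 arrays as a line. Ppp1r15a is above 1 in all 4 treated arrays, Eif2ak2 is below 1 in all 4 of them, and Eif4ebp1 is at 1.56 and 1.46 in treated Atf4+/+ liver alone.

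Eif2ak3, the gene of the endogenous kinase whose chimera was activated, showed no separation of the groups. Its ratio was 0.98 and 1.01 in treated Atf4-/- arrays, 0.99 and 1.37 in treated Atf4+/+ arrays, 1.45 and 0.61 in untreated Atf4-/- arrays, and 0.85 and 1.09 in untreated Atf4+/+ arrays. The highest and the lowest of the 8 values were both in the untreated Atf4-/- group. The AP20187 effect over both genotypes was 0.16 ± 0.28 (SE, 4 arrays against 4, limma adjusted p 0.856), with a confidence interval from -0.52 to 0.83. That interval includes a rise or a fall of modest size, so equality is not shown. The effect was 0.06 ± 0.40 in Atf4-/- and 0.25 ± 0.40 in Atf4+/+ liver, and without both doubted untreated arrays it was -0.50 ± 0.32 in Atf4-/- and 0.41 ± 0.32 in Atf4+/+ liver. Whether the probes also detect mRNA of the transgene was not tested. RNA of whole liver was measured, so that fewer cells of a type and less RNA per cell cannot be told apart for this or any gene below.

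Eif2ak2, the gene of the kinase that senses double-stranded RNA, was lower in every treated array than in every untreated one. Its ratio was 0.97 and 0.75 in treated Atf4-/- arrays, 0.70 and 0.80 in treated Atf4+/+ arrays, 1.38 and 1.23 in untreated Atf4-/- arrays, and 1.26 and 1.03 in untreated Atf4+/+ arrays. The highest treated value, 0.97, lay close under the lowest untreated value, 1.03. The mean ratio was 0.805 ± 0.117 in treated and 1.225 ± 0.145 in untreated arrays (SD, n = 4 each). The fitted difference was nearly the same in both genotypes, -0.56 ± 0.23 in Atf4-/- and -0.55 ± 0.23 in Atf4+/+ liver, with a difference between them of -0.01 ± 0.33 (confidence interval -0.80 to 0.78).

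Over both genotypes the Eif2ak2 effect was -0.55 ± 0.16 (SE), with an unadjusted p under 0.05 and a limma adjusted p of 0.335. An unadjusted p under 0.05 in this direction was reached by 5.15% of all probe sets, and 3.78% were lower in all 4 treated arrays without overlap. A share of 1 in 5 genes has to be read against those backgrounds. Leaving out treated Atf4-/- replicate 2 gave -0.47, with an unadjusted p no longer under 0.05. Leaving out both doubted untreated arrays gave -0.66 ± 0.22.

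Eif2ak4, the gene of the amino acid sensor, had its lowest value, 0.49, in a treated Atf4-/- array. Its ratio was 0.49 and 0.79 in treated Atf4-/- arrays, 0.80 and 1.36 in treated Atf4+/+ arrays, 1.47 and 0.76 in untreated Atf4-/- arrays, and 1.30 and 1.20 in untreated Atf4+/+ arrays. Treated and untreated values overlapped, through the 1.36 of treated Atf4+/+ replicate 2 and the 0.76 of untreated Atf4-/- replicate 2. The AP20187 effect was -0.46 ± 0.28 over both genotypes (adjusted p 0.575), -0.68 ± 0.40 in Atf4-/- and -0.23 ± 0.40 in Atf4+/+ liver. The sign in Atf4+/+ liver hung on 1 array, since it was 0.11 without treated Atf4+/+ replicate 1. With AP20187, Atf4-/- against Atf4+/+ gave -0.66 ± 0.40 (adjusted p 0.955), the 2 groups separated only by 0.79 against 0.80. Without both doubted arrays the effect in Atf4-/- liver was -1.12 ± 0.47 and over both genotypes -0.70 ± 0.33.

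The fourth eIF2 kinase of mammals, the haem-regulated HRI (Eif2ak1), is set beside these 3 for comparison. It had ratios of 0.98 and 0.97 in treated Atf4-/- arrays, 1.07 and 0.76 in treated Atf4+/+ arrays, 1.05 and 1.09 in untreated Atf4-/- arrays, and 1.02 and 0.73 in untreated Atf4+/+ arrays. Its AP20187 effect over both genotypes was -0.03 ± 0.18 (adjusted p 0.956). Of the 4 kinase genes, only Eif2ak2 had treated and untreated arrays that did not overlap, lower when treated as in 3.78% of all probe sets.

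Ppp1r15a, which encodes the inducible subunit that directs the phosphatase to eIF2, was higher in every treated array than in every untreated one. Its ratio was 1.26 and 1.05 in treated Atf4-/- arrays, 1.59 and 2.30 in treated Atf4+/+ arrays, 0.94 and 0.77 in untreated Atf4-/- arrays, and 0.95 and 0.92 in untreated Atf4+/+ arrays. The mean ratio was 1.55 ± 0.55 in treated and 0.895 ± 0.084 in untreated arrays (SD, n = 4 each). The treated Atf4+/+ arrays stood above the other 6, and the treated Atf4-/- arrays lay between them and the untreated ones.

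The AP20187 effect on Ppp1r15a over both genotypes was 0.68 ± 0.18 (SE), with a confidence interval from 0.24 to 1.11, an unadjusted p under 0.05 and a limma adjusted p of 0.304. An unadjusted p under 0.05 with a higher treated level was found for 6.16% of probe sets, and 4.19% were higher in all 4 treated arrays without overlap. The effect was 0.39 ± 0.26 in Atf4-/- liver (adjusted p 0.752) and 0.96 ± 0.26 in Atf4+/+ liver (adjusted p 0.388). In Atf4+/+ liver the unadjusted p was under 0.05, as for 4.78% of probe sets in that direction.

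The genotypes were then set against each other for Ppp1r15a. With AP20187, Atf4-/- against Atf4+/+ gave -0.69 ± 0.26 (adjusted p 0.880), and without AP20187 it gave -0.12 ± 0.26. The difference of the AP20187 effects, Atf4-/- minus Atf4+/+, was -0.57 ± 0.36 (confidence interval -1.44 to 0.31, adjusted p 0.945), so a smaller effect in Atf4-/- liver was not shown by this test.

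Single arrays bore on the size of these Ppp1r15a values. The highest ratio, 2.30, was in treated Atf4+/+ replicate 2, the array with the lowest Actb 5′ over 3′ ratio and the lowest hepatocyte markers. Its Gapdh 5′ over 3′ log2 ratio, -0.06, was close to the -0.05 to 0.13 of the other arrays. The part of these features of that array in the result was not tested. Without that array the effect was 0.55 over both genotypes and 0.71 in Atf4+/+ liver, and Atf4-/- against Atf4+/+ with AP20187 was -0.43. Without both doubted untreated arrays the effect over both genotypes was 0.60 ± 0.25 and that in Atf4+/+ liver 0.94 ± 0.36, both with an unadjusted p no longer under 0.05.

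Ppp1r15b, the constitutive counterpart of Ppp1r15a, had treated and untreated arrays that overlapped. Its ratio was 0.72 and 0.68 in treated Atf4-/- arrays, 1.34 and 1.39 in treated Atf4+/+ arrays, 0.94 and 1.06 in untreated Atf4-/- arrays, and 1.88 and 0.70 in untreated Atf4+/+ arrays. Its AP20187 effect over both genotypes was -0.12 ± 0.29 (adjusted p 0.901), and its highest ratio was in an untreated array.

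Eif4ebp1, the gene of the eIF4E repressor, was high in one group, treated Atf4+/+ liver. Its ratio was 0.84 and 0.76 in treated Atf4-/- arrays, 1.56 and 1.46 in treated Atf4+/+ arrays, 0.79 and 0.99 in untreated Atf4-/- arrays, and 1.08 and 1.01 in untreated Atf4+/+ arrays. The mean ratio was 0.800 ± 0.057 in treated Atf4-/-, 1.51 ± 0.07 in treated Atf4+/+, 0.890 ± 0.141 in untreated Atf4-/- and 1.045 ± 0.050 in untreated Atf4+/+ arrays (SD, n = 2 each).

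With AP20187, Eif4ebp1 in Atf4-/- against Atf4+/+ liver gave -0.84 ± 0.21 (SE), with a confidence interval from -1.35 to -0.33. The unadjusted p was under 0.05 and the limma adjusted p was 0.648, which placed the probe set at rank 120 of 12422 by p. The difference itself came only from arrays whose Atf4 ratio matched their label. Its SE, interval and p also drew on the spread within the untreated groups, which hold the doubted arrays. Of the 7 lists of cell type markers, 2 also separated these groups by their mean log2(ratio + 0.1). For 9 hepatocyte markers it was 0.32 and 0.22 in treated Atf4-/- and 0.10 and -0.26 in treated Atf4+/+ arrays. For 8 neutrophil markers it was 0.43 and 0.13 in treated Atf4-/- and -0.13 and 0.01 in treated Atf4+/+ arrays. The part of these 2 lists in the result was not tested. None of the 7 lists separated the 4 treated from the 4 untreated arrays. An unadjusted p under 0.05 with a lower level in Atf4-/- was found for 2.78% of probe sets, and it was found for 2 of the 5 genes, Eif4ebp1 and Ppp1r15a. Over 18 other settings of the analysis the Eif4ebp1 difference ran from -0.90 to -0.63 and that of Ppp1r15a from -0.94 to -0.43. Settings that changed only untreated arrays could not move these differences, only their errors. With the 4 treated arrays fitted alone, limma's unadjusted p was under 0.05 for Eif4ebp1 and not for Ppp1r15a.

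Counts of separated groups are less telling with 2 arrays against 2. For 15.3% of all probe sets both treated Atf4-/- arrays lay below both treated Atf4+/+ arrays, and 3 of the 5 genes were among them, Eif4ebp1, Ppp1r15a and Eif2ak4. For 5.55% of probe sets both treated Atf4+/+ arrays lay above the other 6, which held for Eif4ebp1 and Ppp1r15a.

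The AP20187 effect on Eif4ebp1 was -0.13 ± 0.21 in Atf4-/- liver (adjusted p 0.903) and 0.49 ± 0.21 in Atf4+/+ liver (adjusted p 0.563). The difference of the 2 effects was -0.62 ± 0.30 (confidence interval -1.34 to 0.10, adjusted p 0.931), and without both doubted untreated arrays it was -0.43 ± 0.39. Without AP20187, Atf4-/- against Atf4+/+ gave -0.22 ± 0.21, a comparison between the groups that hold the doubted arrays.

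**Figure D2:**
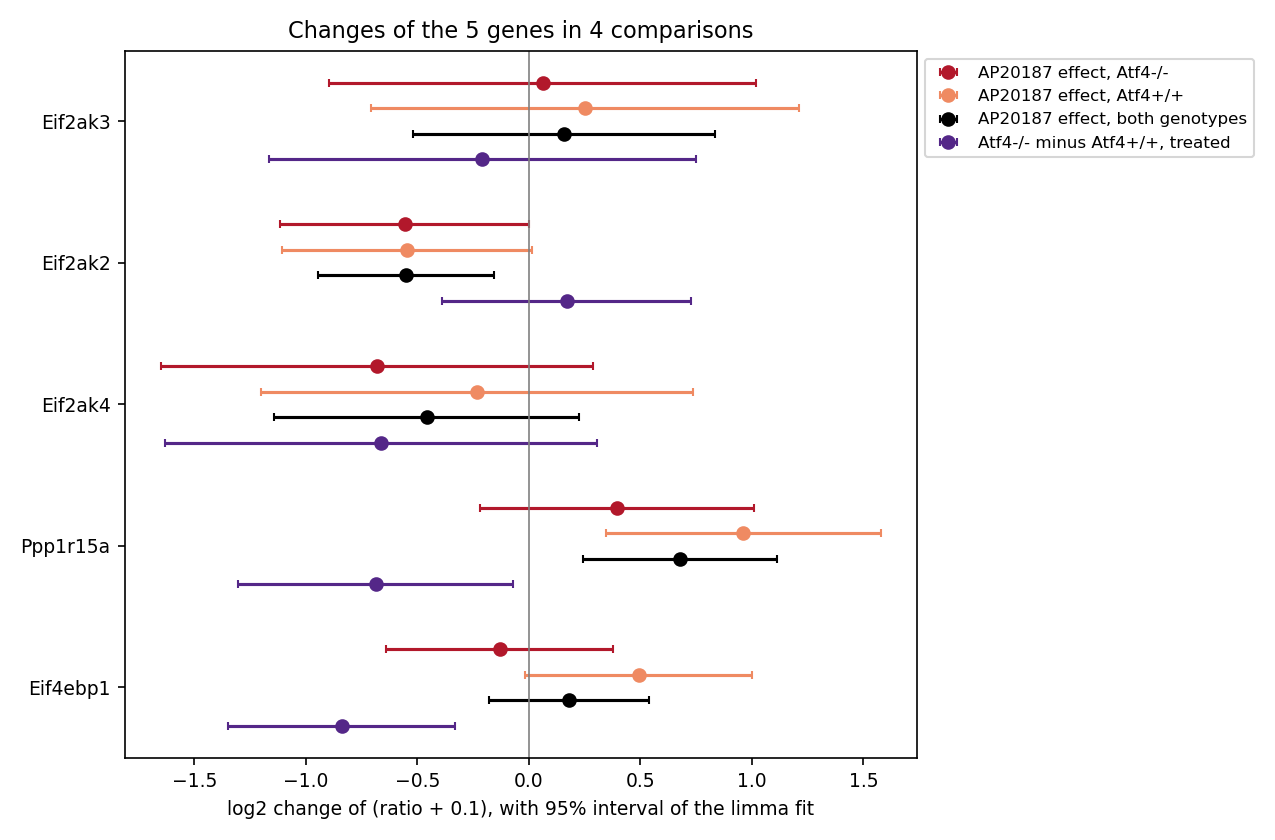
Fitted log2 difference of each gene with its 95% confidence interval in 4 comparisons: AP20187 against untreated in Atf4-/- liver, in Atf4+/+ liver and over both, and Atf4-/- against Atf4+/+ with AP20187. The intervals leave out 0 for Ppp1r15a in 3 of the 4, for Eif2ak2 over both genotypes (-0.95 to -0.16) and for Eif4ebp1 between the treated genotypes (-1.35 to -0.33), before any adjustment for the number of probe sets.

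Eif4ebp2 encodes a second repressor of eIF4E, and its 3 probe sets ran opposite to Eif4ebp1 in treated Atf4+/+ liver. The probe set chosen for the lists read 0.84 and 0.79 in treated Atf4-/- arrays, 0.83 and 0.48 in treated Atf4+/+ arrays, 1.39 and 1.16 in untreated Atf4-/- arrays, and 1.55 and 1.37 in untreated Atf4+/+ arrays. All 4 treated arrays were below all 4 untreated ones in each of the 3 probe sets, as in 3.78% of all probe sets. The chosen probe set was also among those named for a small p in this same comparison, so its separation is no further evidence. The AP20187 effects of the 3 probe sets over both genotypes were -0.83 ± 0.20 for the chosen one (adjusted p 0.265), and -0.95 ± 0.34 and -1.31 ± 0.46 for the other 2 (adjusted p 0.388 for both). The first of them gave -0.58 ± 0.28 in Atf4-/- liver and -1.08 ± 0.28 in Atf4+/+ liver. The lowest value in each probe set, 0.48, 0.28 and 0.10, was again in treated Atf4+/+ replicate 2.

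**Figure D3:**
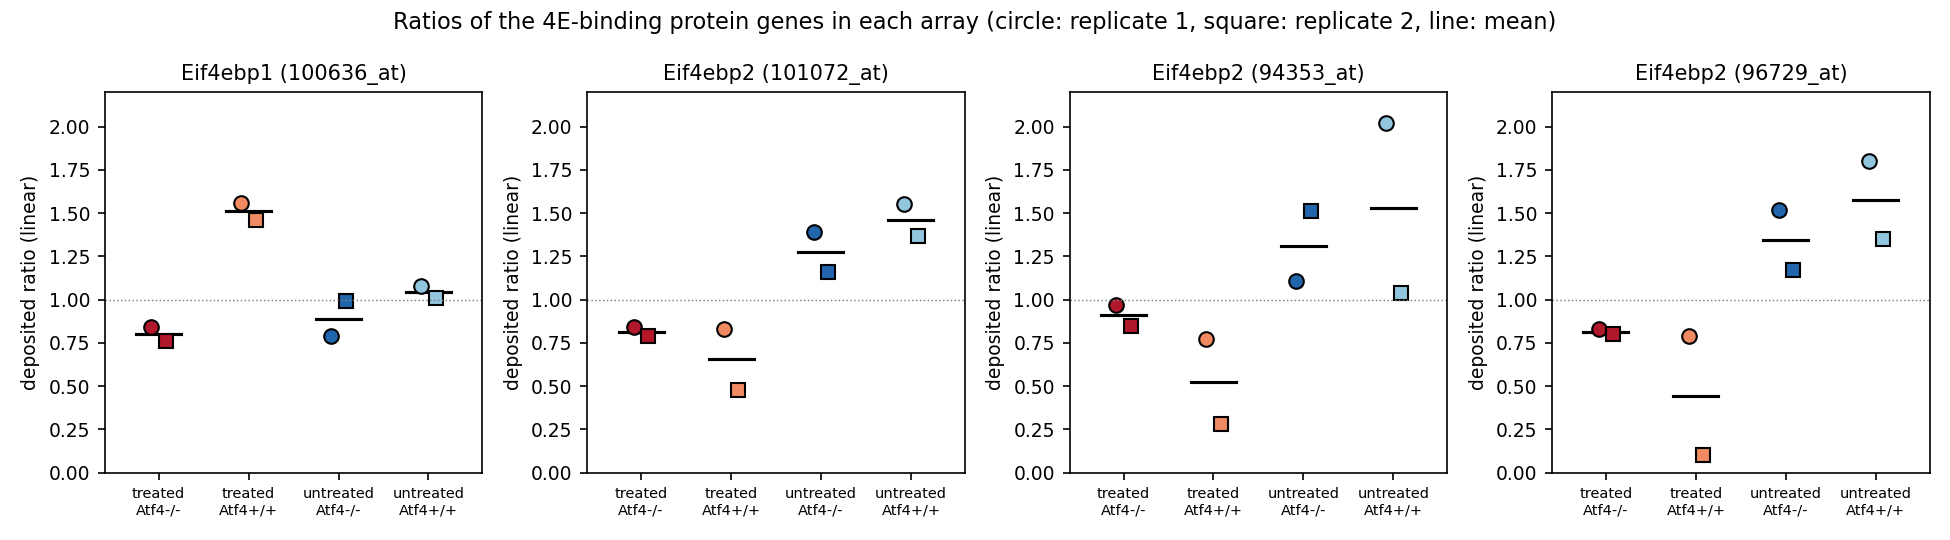
Linear ratio of Eif4ebp1 (1 probe set) and Eif4ebp2 (3 probe sets) in the 8 arrays by group, with circles and squares for replicates 1 and 2 and lines for means. In treated Atf4+/+ liver Eif4ebp1 is at 1.56 and 1.46 while Eif4ebp2 is at 0.83 or less, and all treated values of Eif4ebp2 lie below its untreated values.

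The 5 genes did not move as a block. Over both genotypes 3 had an AP20187 effect above 0 and 2 below, with a median of 0.16 beside -0.04 for all probe sets. For Atf4-/- against Atf4+/+ with AP20187, 4 of the 5 were below 0, beside 5610 of all 12422 probe sets, with a median of -0.66 beside 0.04. The difference of the AP20187 effects was below 0 for 5 of 5, beside 5794 of all 12422. Its median was -0.45 beside 0.04, and none of the 5 passed the test. Among the 5, Eif2ak2 was at -0.01 ± 0.33 and kept that sign in 11 of 17 alternatives, and Eif2ak3 kept its sign in 14. Both of these genotype comparisons use the treated arrays and so are not separate evidence. Across the 8 arrays Ppp1r15a and Eif4ebp1 had a Pearson r of 0.68 on the log2 scale, Ppp1r15a and Eif2ak2 one of -0.69, and Eif2ak3 and Eif4ebp1 one of 0.04. These r values describe 8 arrays that share their group differences.

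The kinases and the phosphatase act on the alpha subunit of eIF2, and phosphorylated eIF2 inhibits its exchange factor eIF2B. Of 8 listed genes of eIF2 and eIF2B subunits 6 were measured here, and Eif2s1, the gene of the alpha subunit, was not among them. All 6 had an AP20187 effect above 0 over both genotypes, beside 5586 of all 12422 probe sets, with a median of 0.21. The effects of Eif2b5 (0.02 ± 0.15), Eif2s3x (0.10 ± 0.14) and Eif2b1 (0.11 ± 0.19) were smaller than their SE. None of the 6 passed the adjusted test, and 2 were higher at an unadjusted p under 0.05, beside 6.16% of all probe sets. Eif2b4, the delta subunit of eIF2B, had ratios of 1.17 and 1.10 in treated Atf4-/-, 1.14 and 1.30 in treated Atf4+/+, 0.74 and 0.49 in untreated Atf4-/- and 0.90 and 0.71 in untreated Atf4+/+ arrays (0.68 ± 0.18, adjusted p 0.304). Eif2s2, the beta subunit of eIF2, had 1.27 and 1.07 in treated Atf4-/-, 1.37 and 1.39 in treated Atf4+/+, 0.87 and 0.55 in untreated Atf4-/- and 0.93 and 0.84 in untreated Atf4+/+ arrays (0.63 ± 0.18, adjusted p 0.322). In both genes every treated array was above every untreated one, as in 4.19% of all probe sets. Both were named for a small p in this same comparison, so the separation is no further evidence. A second probe set of Eif2s2 was scattered from 0.27 to 2.79 with overlapping groups. Eif2b2, the beta subunit of eIF2B, gave 0.31 ± 0.15. Between the treated genotypes the smallest p values belonged to Eif2b1 (-0.33 ± 0.27) and Eif2s2 (-0.23 ± 0.26), neither past the test.

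Regulators of the kinases and of the phosphatase were measured for 13 of 17 listed genes, with 8 above and 5 below 0, a median of 0.06 and none past the adjusted test. Hspa5, the chaperone BiP that holds PERK inactive, had the smallest p among them. Its ratio was 1.22 and 1.10 in treated Atf4-/-, 1.10 and 1.13 in treated Atf4+/+, 0.90 and 0.47 in untreated Atf4-/- and 0.73 and 0.71 in untreated Atf4+/+ arrays. Its treated arrays were all above the untreated ones, as in 4.19% of all probe sets (0.65 ± 0.21, adjusted p 0.376). Hspa5 was named for a small p in this same comparison, so the separation is no further evidence. Dnajc3, the co-chaperone p58IPK, an inhibitor of PKR and PERK, gave 0.39 ± 0.18 (adjusted p 0.481). Of its 3 other probe sets 2 gave 0.32 and 0.27 and the other -0.67. Ppp1cb, a catalytic subunit of protein phosphatase 1, gave 0.30 ± 0.18. Between the treated genotypes the genes with the smallest p were Ppp1r15b (-0.87 ± 0.41) and Impact, an inhibitor of GCN2 (1.07 ± 0.57), both with an adjusted p of 0.952.

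Factors of cap binding and of the mTORC1 pathway, on which 4E-BP1 acts or depends, were measured for 24 of 33 listed genes. Over both genotypes 14 were above and 10 below 0, with a median of 0.13 and none past the adjusted test. At an unadjusted p under 0.05, 5 were higher and 3 lower, beside 6.16% and 5.15% of all probe sets. Ddit4, an inhibitor of mTORC1, had ratios of 2.11 and 2.71 in treated Atf4-/- arrays, 5.49 and 1.35 in treated Atf4+/+ arrays, 0.42 and 0.65 in untreated Atf4-/- arrays, and 0.43 and 0.31 in untreated Atf4+/+ arrays. All treated arrays were above all untreated ones, as in 4.19% of all probe sets (2.30 ± 0.43, adjusted p 0.202), with the widest spread within treated Atf4+/+ liver. Ddit4 was named for a small p in this same comparison, so the separation is no further evidence. Eif4g3, a scaffold of the cap-binding complex, had 1.03 and 1.31 in treated Atf4-/-, 1.62 and 1.99 in treated Atf4+/+, 0.97 and 0.56 in untreated Atf4-/- and 0.61 and 0.67 in untreated Atf4+/+ arrays (0.97 ± 0.21, adjusted p 0.233). Between the treated genotypes the smallest p values belonged to Mknk1, a kinase of eIF4E, with 0.98 and 0.62 in Atf4-/- and 1.47 and 1.89 in Atf4+/+ arrays (-1.0 ± 0.29, adjusted p 0.782), and to Eif4g3 (-0.59 ± 0.30, adjusted p 0.952).

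Eif2ak2 is itself an interferon-induced gene, so other genes of that response were read beside it. Of 30 listed 20 were measured, 12 above and 8 below 0 over both genotypes, with a median of 0.07 and none past the adjusted test. The 2 with an unadjusted p under 0.05 were higher in treated liver, opposite in sign to Eif2ak2, beside 6.16% of all probe sets higher by that rule. Irf9, the DNA-binding subunit of the interferon-activated factor ISGF3, had 1.44 and 1.11 in treated Atf4-/-, 1.0 and 1.01 in treated Atf4+/+, 0.72 and 0.61 in untreated Atf4-/- and 0.89 and 1.0 in untreated Atf4+/+ arrays (0.46 ± 0.16, adjusted p 0.382). Ifit2 gave 0.43 ± 0.17 (adjusted p 0.430). All 8 ratios of Ifit2 were at 0.60 or less, so they do not centre on 1.0, unlike those of Eif2ak2. They were 0.29 and 0.33 in treated Atf4-/-, 0.60 and 0.43 in treated Atf4+/+, 0.32 and 0.26 in untreated Atf4-/- and 0.28 and 0.23 in untreated Atf4+/+ arrays. Treated and untreated arrays of Ifit2 overlapped. Gbp2, a guanylate-binding protein, gave 0.50 ± 0.26 (adjusted p 0.527). Between the treated genotypes the smallest p values were those of Gbp3 (-0.72 ± 0.27, adjusted p 0.880) and Ifit2 (-0.57 ± 0.24, adjusted p 0.942). None of the 8 genes below 0 had an unadjusted p under 0.05. Whether the interferon response had a part in the Eif2ak2 ratios was not tested.

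**Figure D4:**
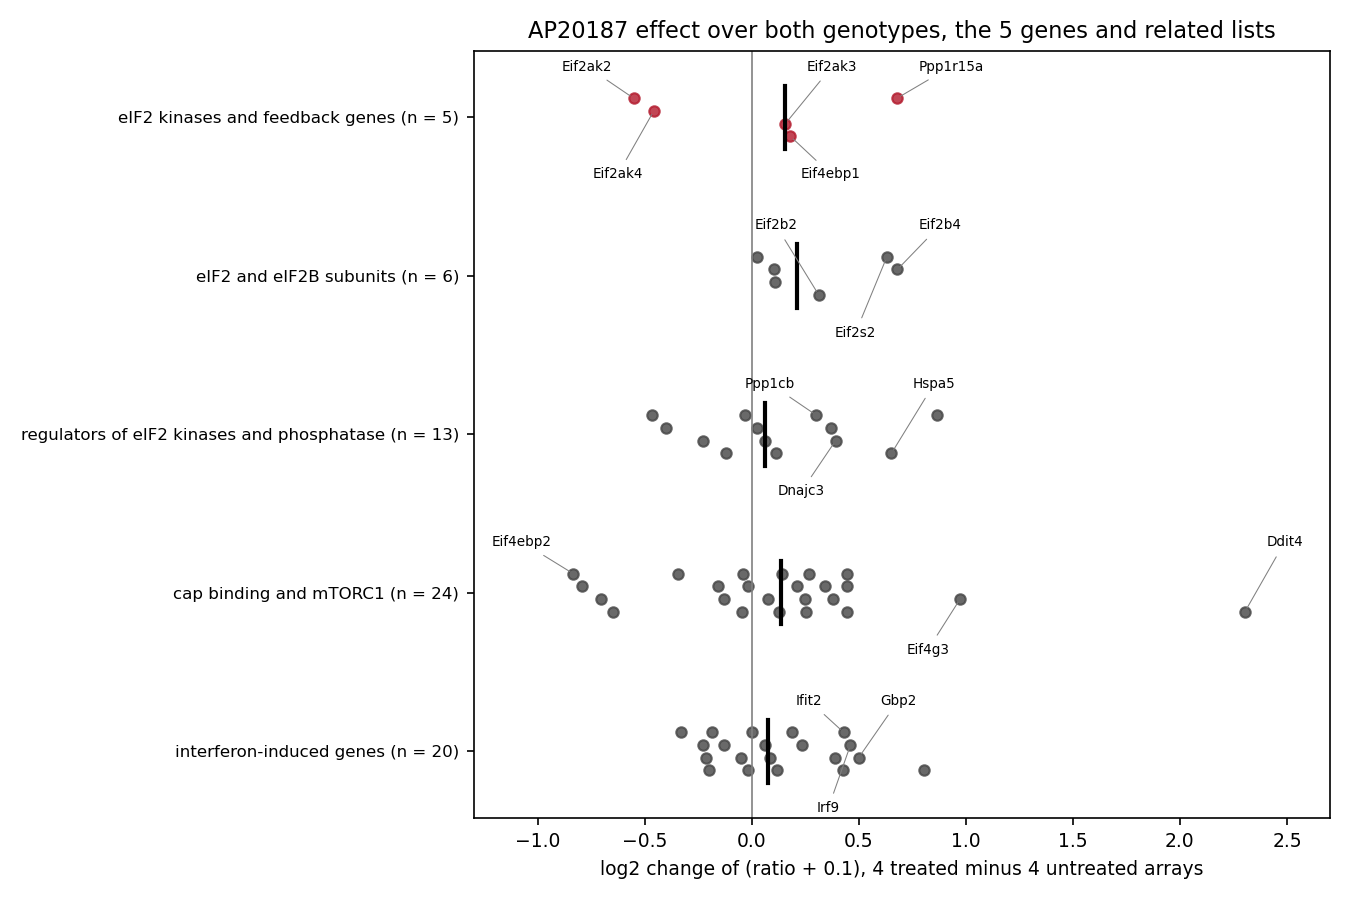
AP20187 effect over both genotypes (log2 of ratio + 0.1, 4 treated minus 4 untreated arrays) for the 5 genes and for the measured genes of 4 related lists, with a point for each gene and a bar for the median. The medians lie between 0.06 and 0.21, and the labelled points are the 5 genes and, in each list, the 3 genes with the smallest p.

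Across the 8 arrays each gene's pattern was compared with that of all probe sets naming 1 other gene by Pearson r of the log2 values. Closest to Ppp1r15a were Thumpd1 (r 0.984), Nifk (0.979), and Ran (0.977), and Nifk read 1.14 and 1.19 in treated Atf4-/- and 1.87 and 3.15 in treated Atf4+/+ arrays, with 0.74 to 0.86 in the untreated ones. Closest to Eif4ebp1 were Cip2a (0.957), Snw1 (0.935) and Tox4 (0.931). The probe set of Cip2a has a median ratio of 0.42, and it read 0.22 and 0.19 in treated Atf4-/- and 1.32 and 1.01 in treated Atf4+/+ arrays. Closest to Eif2ak2 were Tuba4a (0.987), Sox18 (0.954) and Anapc2 (0.952), all with narrower ranges over the arrays than Eif2ak2 had. Closest to Eif2ak3 were Vamp7 (0.958), A4galt (0.934) and Plod3 (0.930), and closest to Eif2ak4 were Dsc2 (0.948), Specc1 (0.948) and Agpat1 (0.946). With 8 arrays and 10833 probe sets to choose from, values of this size describe these arrays only.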

How the data were processed

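Total RNA of 8 liver samples was hybridised to MG-U74Av2 arrays. The deposited values are linear ratios in steps of 0.01. For 10714 of 12488 rows (85.8%) the row median is at least 0.99. No source used here gives how the authors summarised, scaled and divided signals, or which signals were detected. Groups came from source names and descriptions. The 66 control probe sets were left out. The log2 of the ratio + 0.1 was fitted with limma 3.58.1 in R 4.3.3 (4 group means, 6 contrasts, eBayes), checked on simulated data, with Benjamini-Hochberg adjustment over 12422 probe sets and a threshold of 0.05. The fit had 4 residual degrees of freedom. Genes were named from the platform annotation, and RefSeq gave positions and promoters. The 5 genes, gene lists and tests were chosen with earlier results of these data known. From each list the text names up to 3 genes with the smallest p for AP20187 over both genotypes and 2 for the treated genotypes. Alternatives were median centring, quantile normalization, pseudocounts of 0.02 and 0.5, a row median filter, a robust prior, array weights, a threshold of 0.1, the compared arrays alone, leaving out arrays, and genotypes from the descriptions.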

Additional observations from a re-analysis of the deposited data

Results flagged for a closer look

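In Mknk1 and Gbp3, 2 genes named above, AP20187 went with opposite directions in the genotypes as labelled, with no overlap between the arrays of either pair of groups. The same held for 4 of the 63 measured genes of the lists (6.35%) and for 4.56% of all probe sets, so that such a pattern is not particular to these genes. The other 2 of the 4 were Ifit3 and Isg15, named after their values were seen. Mknk1 read 0.98 and 0.62 in treated Atf4-/- against 1.02 and 1.17 in untreated Atf4-/- arrays, and 1.47 and 1.89 in treated Atf4+/+ against 0.58 and 0.78 in untreated Atf4+/+ arrays. The difference of its AP20187 effects was -1.63 ± 0.41 on the log2 scale, with a limma adjusted p of 0.783. Gbp3 read 0.69 and 0.71 in treated Atf4-/- against 1.25 and 1.04 in untreated Atf4-/- arrays, and 1.23 and 1.21 in treated Atf4+/+ against 0.96 and 0.58 in untreated Atf4+/+ arrays. Its difference was -1.27 ± 0.38, with a limma adjusted p of 0.901. Both untreated groups hold an array whose Atf4 ratio stood against its label.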

How the results depend on the processing

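The 5 genes gave 530 values over the alternatives to 30 results, 504 with the direction reported and 26 with the other, and none passed the adjusted test. The number of probe sets past the test for AP20187 in Atf4+/+ liver, 1 as reported, was 2 with quantile normalization, 8 with the row median filter, 15 at a threshold of 0.1, 17 with genotypes from the descriptions, and 0 with the 4 compared arrays alone or without both doubted untreated arrays. Over both genotypes it was 5 as reported, 12 with quantile normalization, 3 with a pseudocount of 0.02, 8 with one of 0.5, 10 with the filter, 3 with array weights, 21 at 0.1, and 0 without both doubted arrays. In Atf4-/- liver, 0 as reported, it was 1 at 0.1, and for the difference of the AP20187 effects, 0 as reported, it was 2 with the filter and 2 at 0.1. Leaving out single arrays gave 0 to 0 in Atf4+/+ liver and 0 to 2 over both genotypes.

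Without both doubted arrays the sign turned for Eif2ak3 (-0.50 in Atf4-/- liver, -0.04 over both genotypes, 0.71 between untreated genotypes), for Eif4ebp1 (0.01 in Atf4-/- liver), for Eif2ak2 (0.05, difference of effects) and for Eif2ak4 (0.17, untreated genotypes). With genotypes from the descriptions it turned in the difference of effects for Eif2ak2 (0.15), Eif2ak3 (0.55) and Eif2ak4 (0.06), and between untreated genotypes for Eif4ebp1 (0.05). A pseudocount of 0.5 turned Eif2ak3 between untreated genotypes (0.01). Without single arrays, Eif2ak3 ranged from -0.50 to 0.62 in Atf4-/- liver, -0.12 to 0.44 over both genotypes, -0.75 to 0.37 in the difference, -0.43 to 0.01 between treated and -0.58 to 0.54 between untreated genotypes. Eif2ak4 ranged from -0.58 to 0.11 in Atf4+/+ liver and -0.65 to 0.22 between untreated genotypes, Eif4ebp1 from -0.28 to 0.01 in Atf4-/- liver, Eif2ak2 from -0.18 to 0.16 in the difference, and Ppp1r15a from -0.25 to 0.01 between untreated genotypes. The cause of these turns was not tested. No paired analysis was possible because the labels number no replicates. Averaging probe sets was not run, as each gene has 1.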
